A study of Mus musculus with 12 samples.

Results

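The endometrial response to mating with vasectomized males was examined across genes by setting 4 arrays from females mated with such males against 4 arrays from unmated females. Ligation of the vas deferens removes sperm and the fluids of the testis and epididymis from the ejaculate and leaves the secretions of the accessory glands. The 8 arrays were those so titled among the 12 of the study, which also held 4 arrays from females mated with intact males. All females were CBAF1 mice, the F1 offspring of CBA and C57Bl/6 parents, aged 9 to 16 weeks, and the males were BALB/c. Mated females were examined 8 h after mating. Unmated controls were virgin females that the labels place in estrus, while the methods place their collection in pro-estrus, at 2000 h. The stage of the cycle, the hour of collection and mating therefore cannot be told apart in any comparison with the controls below. Each array carried 300 ng of RNA pooled from 4 females, with 16 females behind each group, so replicate error here is that of pools, and variation among individual females was not measured. The table holds log2 expression values for 35556 transcript clusters, and the 23410 clusters with a gene symbol in the array annotation are described here.

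The epithelium that lines the uterine lumen is the first tissue that meets the ejaculate. It senses microbial and host signals through Toll-like receptors and cytokine receptors that release the transcription factor NF-kB, and it answers with chemokines that draw leukocytes into the tissue, with antimicrobial proteins and with changes in the salt and water of the luminal fluid. The same epithelium and the stroma below it divide and change their gene expression through the estrous cycle under estrogen and progesterone, and their circadian clock runs with the hour of the day.

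Median log2 values of the 8 arrays ran from 7.26 to 7.32 and no array was a copy of another. A gene was called higher or lower when its group means differed by at least 1.5-fold with an adjusted p of at most 0.05, and all adjusted p-values are from limma's moderated test with Benjamini-Hochberg correction over the 35556 clusters. Levels are log2 array intensities, and they are compared between arrays for the same gene and never between genes. Epcam, Cdh1, Krt8, Krt18 and Krt19, which encode surface and filament proteins of simple epithelium, had group means from 11.25 to 13.49 on the log2 scale, and such markers do not tell endometrium from another epithelial tissue. The control arrays were the more scattered group, with a median SD of 0.136 on the log2 scale against 0.099 in the vasectomized-mated group.

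After mating with vasectomized males 261 clusters were called higher (1.11% of those tested) and 145 were called lower (0.619%). List counts below are to be read beside these shares, and 1 or 2 calls in a list describe those genes and not the list. Typical sizes were alike, with a median log2 difference of 0.79 among the higher clusters and -0.8 among the lower ones. There were 64 rises and 34 falls of at least 2-fold. The largest changes were rises, with 12 rises and 0 falls of at least 4-fold. The 12 genes that rose 4-fold or more encoded regulators and transporters of chloride and other anions (Clca3b, Clca3a2, Slc26a4, Slc5a8), neutrophil chemokines (Cxcl2, Cxcl5), a feedback inhibitor and a target of NF-kB (Tnip3, Tnfaip2), secreted proteins of mucosal surfaces (Dmbt1, Chil1), an enzyme of phospholipid breakdown (Etnppl) and the imprinted gene Peg10. The falls were led by Greb1, Hsd11b2, Mybl1, Ripor2, Pgr and Aqp8, among which Greb1 and Pgr are textbook targets of estrogen. The values on all 4 vasectomized-mated arrays lay above those on all 4 control arrays in 251 of the 261 higher clusters. They lay below them in 135 of the 145 lower clusters. Over all clusters 7.51% and 4.56% were so placed. The calls and this placement come from the same arrays, so the placement is not separate support for the calls. The median log2 difference over all clusters was -0.01. Both counts moved with single arrays. The count of lower clusters was 273 without control 1, 85 without vasectomized 2 and 94 without vasectomized 4, whereas the count of higher clusters stayed between 201 and 302 whichever array was left out. With controls 1 and 2 alone 214 clusters were higher and 312 lower, and with controls 3 and 4 alone 465 were higher and 236 lower.

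**Figure D1:**
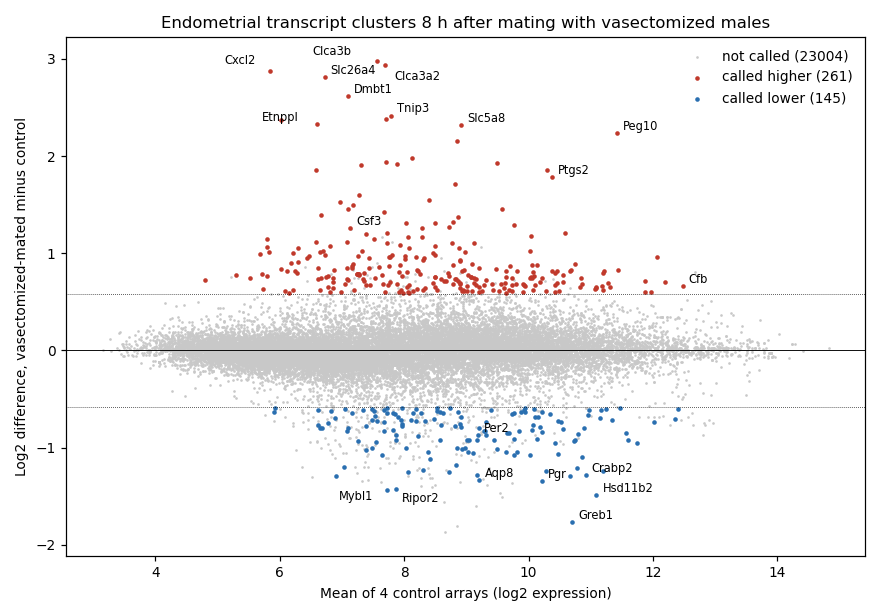
Log2 difference between the means of 4 vasectomized-mated and 4 control arrays (vertical axis) against the control mean (horizontal axis, log2 expression) for 23410 transcript clusters, with dotted lines at 1.5-fold. The 261 clusters called higher reach a difference of 2.98 (Clca3b) and the 145 called lower reach -1.77 (Greb1), and gray clusters beyond the dotted lines did not pass the adjusted p.

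Genes of ion transport were among the largest rises, with 10 of 42 measured members higher. The Clca3 genes encode secreted regulators of calcium-activated chloride currents in epithelia, and Clca3b stood at 7.52, 8.54, 7.31 and 6.86 on control arrays 1 to 4 and at 10.11, 10.39, 11.06 and 10.58 on vasectomized arrays 1 to 4. The lowest mated array was above the highest control array, and the mean rose 7.87-fold (log2 difference 2.98, SE 0.31, adjusted p = 0.000546). Its neighbour in the family Clca3a2 stood at 7.22, 8.2, 8 and 7.35 in controls and 10.35, 10.49, 11.19 and 10.52 after mating, again without overlap, and rose 7.7-fold (SE 0.23 on the log2 scale, adjusted p = 0.000207). The third, Clca3a1, was named after its values were seen and had a log2 difference of 1.86 (SE 0.16, adjusted p = 0.000245). These genes are close relatives, and cross-hybridisation between their probes was not tested.

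Slc26a4 encodes pendrin, which exchanges chloride for bicarbonate and iodide. It measured 6.38, 8.38, 6.3 and 5.82 in controls and 9.56, 9.28, 9.38 and 9.93 after mating, so that control 2 came within 1 log2 unit of the mated arrays while the other controls lay far below. The rise was 7.04-fold (log2 difference 2.81, SE 0.42, adjusted p = 0.00344). Slc5a8, a sodium-coupled carrier of lactate and other monocarboxylates, measured 9.14, 9.6, 8.88 and 8.01 in controls and 11.01, 11.04, 11.34 and 11.49 after mating, and rose 4.98-fold (adjusted p = 0.000756) with no overlap. Further carriers of the list rose too and were named after their values were seen. Slc5a1, the sodium-glucose cotransporter, had a log2 difference of 1.71 (SE 0.14, adjusted p = 0.000207), the sodium-phosphate cotransporter Slc34a2 one of 1.21 (adjusted p = 0.000367), the beta subunit of the epithelial sodium channel Scnn1b one of 1.05 (adjusted p = 0.00229), the anion exchanger Slc26a9 one of 0.83 (adjusted p = 0.00479) and the sodium pump subunit Atp1b1 one of 0.69 (adjusted p = 0.0288). In all, 10 members of this list rose and 1 fell, with a median log2 difference of 0.23, and the member that fell was Slc4a11, a transporter of the bicarbonate transporter family (-0.65, adjusted p = 0.0123), which was not called without control 4. Cftr, the chloride channel that drives fluid secretion in many epithelia, lay at 10.45, 10.48, 10.43 and 10.6 in controls and at 10.44, 10.44, 10.42 and 10.52 after mating (log2 difference -0.03, adjusted p = 0.905).

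Of 11 aquaporins, the water channels, 0 rose and 1 fell. Aqp8 measured 8.8, 8.76, 9.91 and 9.32 in controls and 8.15, 7.11, 8.54 and 7.66 after mating, a fall to 0.397 of the control level (log2 difference -1.33, SE 0.29, adjusted p = 0.026). The groups did not overlap, although vasectomized 3 at 8.54 lay close to control 2 at 8.76. The Aqp8 call was lost without control 3, control 4, vasectomized 2 or vasectomized 4 (log2 difference from -1.29 to -1.08, adjusted p from 0.053 to 0.0777).

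**Figure D2:**
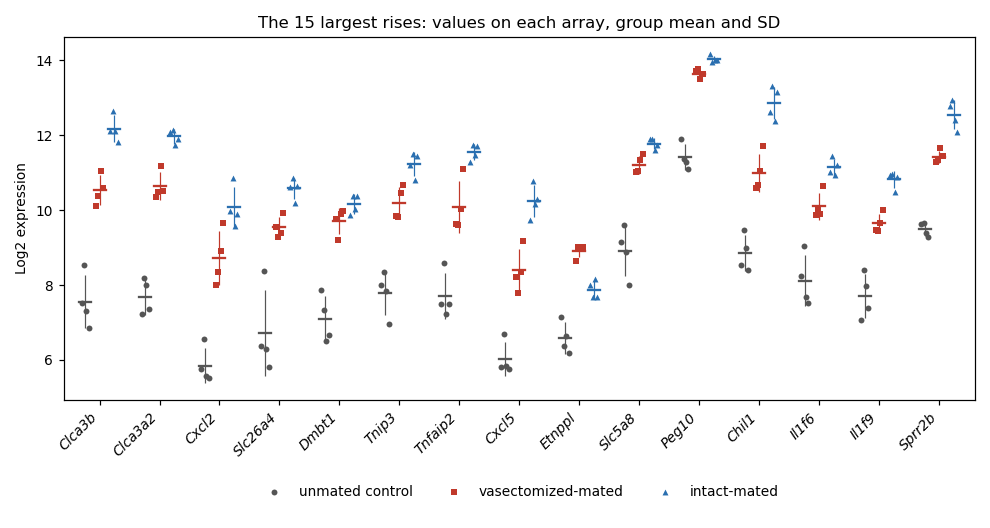
Log2 expression (vertical axis) of the 15 genes with the largest rises on each array, with the group mean as a horizontal bar and the SD (n = 4) as a vertical line, for unmated controls (gray circles), vasectomized-mated females (red squares) and intact-mated females (blue triangles). The 15 genes were chosen so that the 4 vasectomized-mated arrays lie above the 4 control arrays. In Etnppl the intact-mated arrays lie between those groups.

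Chemokines and cytokines that the study lists as differing between its mated groups on these arrays were higher in part. Because that list was drawn from the same arrays, its direction is not independent evidence. The study lists 19 genes, and 18 were measured here. Ccl21a was left out because no cluster carried its symbol alone. It is the only gene that the study lists as lower after intact than after vasectomized mating. Of the 18 measured, 9 rose and 0 fell, and the median log2 difference was 0.67 with all 18 differences above 0. The largest rise was that of Cxcl2, a ligand of the neutrophil receptor CXCR2, which measured 5.75, 6.55, 5.58 and 5.53 in controls and 8.01, 8.36, 8.9 and 9.66 after mating. Every mated array was higher than every control array, and the rise was 7.37-fold (log2 difference 2.88, SE 0.36, adjusted p = 0.00132). Cxcl5, another CXCR2 ligand, stood at 5.8, 6.69, 5.83 and 5.76 in controls and 8.22, 7.79, 8.36 and 9.17 after mating and rose 5.15-fold (adjusted p = 0.0014). Here control 2 was the highest control and vasectomized 4 the highest mated array, as they were for Cxcl2. Cxcl1 rose less, from a tight group of controls at 7.41, 7.55, 7.57 and 7.59 to 8.11, 8.11, 8.3 and 8.59 (1.68-fold, adjusted p = 0.00333), and the fourth CXCR2 ligand listed, Cxcl3, had a log2 difference of 0.39 that was not called (adjusted p = 0.106).

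Csf3, the growth factor of granulocytes, measured 7.27, 6.85, 7.12 and 7.3 in controls and 8.18, 8.33, 8.66 and 8.4 after mating, and rose 2.39-fold (SE 0.12 on the log2 scale, adjusted p = 0.000366). Il17c, an epithelial cytokine of mucosal defense, was nearly the same on the 4 controls at 7.17, 7.14, 7.22 and 7.15 and spread from 8.13 to 9.62 after mating, with a 2.84-fold rise (adjusted p = 0.00828). Ptgs2, the inducible cyclooxygenase of prostaglandin synthesis, rose 3.44-fold from 10.92, 11.19, 10.24 and 9.14 to 11.83, 12, 12.05 and 12.74 (adjusted p = 0.0157). The Ptgs2 controls were spread over 2 log2 units with control 4 lowest, and its call was lost without vasectomized 4 (log2 difference 1.59, adjusted p = 0.051). The remaining calls of the list were near the threshold. The groups overlapped for Cxcl10, a ligand of the T cell receptor CXCR3 (7.55, 7.58, 6.41 and 6.3 against 9.45, 7.54, 8.4 and 8.56, adjusted p = 0.0483), and for Tnf (7.06, 7.47, 6.32 and 6.39 against 7.76, 7.45, 8.03 and 8.28, adjusted p = 0.0432). Cxcl16, a membrane-bound chemokine, had a log2 difference of 0.68 (adjusted p = 0.0258). The calls of Cxcl10, Tnf and Cxcl16 were lost without control 3, control 4, vasectomized 1, vasectomized 3 or vasectomized 4, with log2 differences from 1.21 to 1.56 for Cxcl10 (adjusted p from 0.105 to 0.127), from 0.91 to 1.11 for Tnf (adjusted p from 0.0788 to 0.118) and from 0.57 to 0.7 for Cxcl16 (adjusted p from 0.0505 to 0.0778). Without vasectomized 4 alone, 5 of the 18 were called.

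The other 9 study cytokines were not called. Il1b, the pyrogenic interleukin, stood at 6.21, 6.3, 6.4 and 6.29 in controls and at 7, 6.73, 6.32 and 7.34 after mating, and vasectomized 3 lay within the controls (log2 difference 0.55, SE 0.28, adjusted p = 0.308). Il6 ran from 4.13 to 4.44 in controls and from 4.23 to 4.76 after mating (log2 difference 0.32, adjusted p = 0.206), low on the scale of this array. The macrophage growth factor Csf1 had a log2 difference of 0.66 (adjusted p = 0.0668), the implantation cytokine Lif one of 0.46 (adjusted p = 0.151), the mucosal chemokine Ccl28 one of 0.41 (adjusted p = 0.181), Ccl3 one of 0.37 (adjusted p = 0.658), Ppbp one of 0.36 (adjusted p = 0.561) and Il23a one of 0.2 (adjusted p = 0.439). Outside that list, 0 of 26 other chemokines were called in limma, with a median log2 difference of 0.06, although 7 were higher at an unadjusted p under 0.05. Over all 23410 clusters, 2446 were higher at that unadjusted p. Ccl2, which attracts monocytes, had the largest difference among the 26 other chemokines at 1.25 (SE 0.37, adjusted p = 0.085). It stood at 9.62 on vasectomized 1 and 7.29 on vasectomized 2, the latter within the controls at 7.43, 7.37, 6.97 and 6.81. Of 36 other cytokines 2 rose, where 1.11% of all clusters were called higher. They were Tnfsf10, a death ligand of the TNF family (1.62-fold, adjusted p = 0.0015), and Ifne, the interferon of reproductive epithelium (1.6-fold, adjusted p = 0.00249).

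Within the interleukin-1 and interleukin-36 family 3 of 13 members rose and 0 fell, and all 3 were interleukin-36 ligands, which epithelia release to activate NF-kB in their neighbours. Il1f6, which encodes interleukin-36 alpha, stood at 8.23, 9.05, 7.69 and 7.53 in controls and 9.88, 10.01, 9.9 and 10.64 after mating and rose 3.95-fold (SE 0.29 on the log2 scale, adjusted p = 0.00278). Il1f9, interleukin-36 gamma, stood at 7.08, 8.39, 7.97 and 7.4 in controls and 9.46, 9.45, 9.67 and 10 after mating and rose 3.83-fold (adjusted p = 0.00132). Il1f8, interleukin-36 beta, rose 1.59-fold (adjusted p = 0.00989). In these 3 genes no mated array overlapped the controls.

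Regulators and targets of NF-kB were the list with the most calls beside ion transport. Of 33 measured, 10 rose and 0 fell, 29 differences were above 0 and the median was 0.33 on the log2 scale. Tnip3, which binds the ubiquitin editor A20 and restrains NF-kB, stood at 7.99, 8.36, 7.84 and 6.97 in controls and 9.84, 9.83, 10.47 and 10.67 after mating, without overlap, and rose 5.32-fold (log2 difference 2.41, SE 0.28, adjusted p = 0.000909). Tnfaip2, a gene induced by tumor necrosis factor, stood at 7.5, 8.59, 7.22 and 7.5 in controls and at 9.62, 9.6, 10.02 and 11.1 after mating, and rose 5.22-fold (adjusted p = 0.00246). Tnfaip3, which encodes A20 itself, stood at 8.24, 8.7, 7.25 and 7.31 in controls and 9.68, 9.51, 9.75 and 10.26 after mating and rose 3.8-fold (adjusted p = 0.00361). Controls 1 and 2 were above controls 3 and 4 in Tnfaip3, and all were below the mated arrays. The other 7 were named after their values were seen and were the peptidoglycan sensor Nod2 (log2 difference 1.2), the RNase Zc3h12a that degrades cytokine mRNA (1.17), the leukocyte adhesion molecule Icam1 (1.17), the ubiquitin ligase Birc3 (0.85), the nuclear NF-kB cofactor Nfkbiz (0.75), the receptor Tlr2 (0.61) and the adaptor Tifa (0.6), with adjusted p-values from 0.000245 to 0.0104.

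Promoter sequence was examined as a property that the calls did not use. In the RefSeq promoter windows of 300 bases, which run from 250 bases before to 50 after each start site, the letters GGNNTTTCC, an NF-kB motif searched on both strands, were present in 28 of 178 genes called higher that had a window (15.7%), in 4 of 104 called lower (3.85%) and in 1044 of all 15614 genes on the array with a window (6.69%). The 28 genes included Cxcl1, Cxcl2, Cxcl10, Icam1, Slc26a4, Clca3a2, Sprr2b, Tnfaip2, Tnfaip3 and Tnip3. The promoters of Cxcl2 (chr5:90903649-90903948, plus strand), Tnip3 (chr6:65590148-65590447, plus strand) and Tnfaip2 (chr12:111442411-111442710, plus strand) are shown from the RefSeq table of build GRCm38.p6, since these are the chemokine and the NF-kB genes with the largest rises that hold the motif, with the matching bases in capitals.
Cxcl2: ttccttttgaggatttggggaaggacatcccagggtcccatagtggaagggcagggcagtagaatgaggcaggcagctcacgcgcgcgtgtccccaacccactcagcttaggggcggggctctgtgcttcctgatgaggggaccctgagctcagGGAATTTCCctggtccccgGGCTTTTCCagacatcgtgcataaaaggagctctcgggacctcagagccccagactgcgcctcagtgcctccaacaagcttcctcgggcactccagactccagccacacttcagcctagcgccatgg
Tnip3: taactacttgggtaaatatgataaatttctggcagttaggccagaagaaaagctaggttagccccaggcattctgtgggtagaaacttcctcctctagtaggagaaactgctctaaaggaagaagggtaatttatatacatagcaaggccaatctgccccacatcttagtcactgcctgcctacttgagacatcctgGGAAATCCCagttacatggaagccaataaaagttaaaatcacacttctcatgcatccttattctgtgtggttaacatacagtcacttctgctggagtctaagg
Tnfaip2: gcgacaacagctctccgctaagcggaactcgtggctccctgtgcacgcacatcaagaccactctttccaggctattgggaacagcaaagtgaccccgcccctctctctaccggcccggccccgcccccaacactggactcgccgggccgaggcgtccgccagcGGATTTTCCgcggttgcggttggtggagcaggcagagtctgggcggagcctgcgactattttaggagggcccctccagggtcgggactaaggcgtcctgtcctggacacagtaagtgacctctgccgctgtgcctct

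The Cxcl2 window holds 2 matches, whose first bases lie 96 and 77 bases before the start site, the Tnip3 window holds 1 match 53 bases before it, and the Tnfaip2 window holds 1 match 87 bases before it. A match is a description of letters and not a site shown to be bound. Other motifs were searched in the same way. The interferon response letters GAAANNGAA were in 15.7% of genes called higher, 8.65% of those called lower and 9.2% of all genes, and these letters can share bases with the NF-kB motif. The E-box CACGTG, which the clock factors bind among others, was in 15.4% of genes called lower, 6.18% of those called higher and 9.5% of all. Of the 6 clock genes called lower and described below, Bhlhe41 and Tef held it, and Per2, Per3, Dbp and Nr1d2 were not among the matches. The STAT motif TTCCNGGAA was in 2.81% of genes called higher (5 genes), 2.88% of those called lower (3 genes) and 1.43% of all. The E2F motifs TTTGGCGC or TTTCCCGC were in 1.69% of genes called higher (3 genes), 3.85% of those called lower (4 genes) and 2.56% of all.

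Of 17 Toll-like receptors, coreceptors and adaptors 2 rose. Cd14, which hands bacterial lipid to TLR4, stood at 9.96, 10.05, 10.21 and 9.93 in controls and 11.16, 11.04, 11.45 and 11.24 after mating, with narrow groups and no overlap, and rose 2.27-fold (SE 0.11 on the log2 scale, adjusted p = 0.00028). Tlr2 rose 1.52-fold (adjusted p = 0.00177), just past the fold threshold, and fell below it at log2 differences of 0.57 to 0.58 (adjusted p from 0.00435 to 0.00801) without control 2, control 4, vasectomized 3 or vasectomized 4. Tlr4 itself had a log2 difference of 0.2 (SE 0.1, adjusted p = 0.289). Among 32 interferon-induced genes 3 rose, 0 fell and 31 differences were above 0, with a median of 0.23. At an unadjusted p under 0.05 in limma 20 were higher, where 2446 of all 23410 clusters were. Ifit3, an RNA-binding antiviral protein, rose 1.77-fold (adjusted p = 0.00376), the GTPase Iigp1 1.7-fold (adjusted p = 0.00269) and the antiviral enzyme Rsad2 1.64-fold (adjusted p = 0.0316). The Rsad2 call was lost without control 3, vasectomized 2, vasectomized 3 or vasectomized 4 (log2 difference from 0.57 to 0.76, adjusted p from 0.0556 to 0.0745), and 5 genes of the list were called without control 4. Of 31 receptors and targets of IL6 and STAT3, 2 rose, the transcription factor Cebpd (1.92-fold, adjusted p = 0.00224) and the acute-phase protein Saa3, with 1 call left without control 1, 2 or 4 or vasectomized 1, 3 or 4.

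In a list of mucosal defense genes 8 of 32 measured members rose and 0 fell, with a list median of 0.13. Most encode secreted proteins, but the 8 include the intracellular enzyme Nos2, and Cd14 and Saa3 among them are also counted in the lists above. Dmbt1, a mucosal glycoprotein that binds bacteria, stood at 7.86, 7.33, 6.51 and 6.68 in controls and 9.76, 9.21, 9.91 and 9.99 after mating, with no overlap, and rose 6.16-fold (log2 difference 2.62, SE 0.27, adjusted p = 0.000447). Chil1, a chitinase-like protein, stood at 8.54, 9.47, 8.99 and 8.4 in controls and 10.59, 10.67, 11.04 and 11.71 after mating and rose 4.44-fold (adjusted p = 0.00199). Nos2, the inducible nitric oxide synthase, ran from 6.61 to 6.77 in controls and from 7.3 on vasectomized 1 to 8.88 on vasectomized 4, a 2.63-fold rise (adjusted p = 0.0192) whose call was lost without control 4 or vasectomized 3 (log2 difference from 1.32 to 1.38, adjusted p from 0.0522 to 0.0607). Saa3 rose 2.07-fold (adjusted p = 0.0346), and its call was lost without any 1 of controls 1, 2 and 4 or vasectomized 1, 3 and 4 (log2 difference from 0.91 to 1.05, adjusted p from 0.0583 to 0.0993). The polymeric immunoglobulin receptor Pigr (0.96), the defensin Defb1 (0.77) and the peptidoglycan receptor Pglyrp1 (0.6) were named after their values were seen. The count of this list was 4 without control 4 and 5 without vasectomized 1, vasectomized 3 or vasectomized 4.

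Complement genes rose in 3 of 22 cases and fell in 0. C2, a protease of the classical pathway, stood at 9.19, 9.19, 9.14 and 8.94 in controls and at 10.06, 10.1, 10.4 and 10.34 after mating and rose 2.16-fold (SE 0.09 on the log2 scale, adjusted p = 0.000239). The alternative pathway protease Cfb rose 1.58-fold (adjusted p = 0.000756). The inhibitor Cfi rose 1.56-fold (adjusted p = 0.00479) and fell below the fold threshold without control 4 (log2 difference 0.53, adjusted p = 0.00396). In the small proline-rich family of the epithelial surface, Sprr2b stood at 9.63, 9.65, 9.4 and 9.29 in controls and 11.29, 11.33, 11.65 and 11.44 after mating, a separation many times the spread of either group, and rose 3.82-fold (SE 0.16, adjusted p = 0.000239). Sprr2d rose 3.62-fold (adjusted p = 0.000367), and Sprr2g, named after its values were seen, had a log2 difference of 0.7. These genes are near copies of each other and their probes may share targets. Krt13, a keratin of stratified epithelium, fell to 0.604 of the control level (adjusted p = 0.0417), a call that was lost without any 1 of controls 2, 3 and 4 or vasectomized 1, 3 and 4 (log2 difference from -0.78 to -0.62, adjusted p from 0.053 to 0.115).

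Among 24 mucins and glycan enzymes, 2 rose, where 1.11% of all clusters were called higher. They were the sialyltransferase St3gal1 (1.77-fold, adjusted p = 0.00396) and the transmembrane mucin Muc13 (1.62-fold, adjusted p = 0.00559). St3gal1 had a further cluster with a log2 difference of 0.11 (adjusted p = 0.694), so its clusters disagreed. Of 33 oxidases and antioxidant genes 3 rose and 2 fell. The organizer and activator subunits of an epithelial NADPH oxidase rose together, Noxo1 2.1-fold from 8.68, 8.83, 8.4 and 8.05 to 9.57, 9.36, 9.54 and 9.78 (adjusted p = 0.0027) and Noxa1 1.9-fold (adjusted p = 0.00199). Slc7a11, the carrier that imports cystine for glutathione, fell to 0.422 of the control level, from 10.41, 10.34, 10.08 and 10.28 to 9.11, 8.71, 9.41 and 8.9 (adjusted p = 0.0023). Catalase, encoded by Cat and named after its values were seen, had a log2 difference of -0.61 (adjusted p = 0.0175), and 1 fall of the list was called without control 3, control 4 or vasectomized 2. Tight junction genes had 0 calls among 22 measured in limma (5 at an unadjusted p under 0.05). At that unadjusted p 2446 of all 23410 clusters were higher and 2113 lower. The largest difference of the tight junction list was -0.49 in Cldn2 (adjusted p = 0.132). In the prostaglandin list Ptgs2 was the single call among 23, where 1.11% of all clusters were called higher. Of 28 genes of cholesterol and lipid synthesis 0 were called in limma, and 9 were lower at an unadjusted p under 0.05, where 2113 of all 23410 clusters were. The median log2 difference was -0.29, with the largest difference, -0.79, in the desaturase Scd1 (adjusted p = 0.111).

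Peg10, an imprinted gene derived from a retrotransposon and best known from placenta, gave the lowest adjusted p of all clusters with a symbol. It stood at 11.89, 11.38, 11.3 and 11.1 in controls and 13.71, 13.78, 13.5 and 13.63 after mating, with a wide gap between the groups, and rose 4.71-fold (log2 difference 2.24, SE 0.14, adjusted p = 4.11e-05). Etnppl, which cleaves phosphoethanolamine, stood at 7.15, 6.38, 6.64 and 6.18 in controls and 8.65, 9.03, 8.97 and 9.03 after mating and rose 5.03-fold (adjusted p = 0.000207). Growth factor signalling had 2 rises and 1 fall among 56 genes. Of all clusters 1.11% were called higher and 0.619% lower, which is also the background for the stress and matrix lists below. Erbb4, a receptor of the EGF family, stood at 8.71, 8.16, 7.69 and 7.76 in controls and at 8.93, 9.16, 9.21 and 9.2 after mating and rose 2.06-fold (SE 0.19, adjusted p = 0.0091). Hbegf, a ligand of that receptor, rose 1.76-fold (adjusted p = 0.017), a call lost without control 4, vasectomized 1 or vasectomized 4 (log2 difference from 0.76 to 0.8, adjusted p from 0.0501 to 0.0533). Wnt5a, a secreted signal of the uterine mesenchyme, fell to 0.569 of the control level, from 10.65, 10.6, 10.48 and 10.52 to 10.03, 9.44, 10.05 and 9.5 (adjusted p = 0.00479). Of 37 immediate early and stress genes, Egr2 (1.74-fold, adjusted p = 0.00857) and the ERK phosphatase Dusp6 (1.74-fold, adjusted p = 0.00132) rose. In the matrix and protease list the urokinase receptor Plaur rose 1.6-fold (adjusted p = 0.011) and the collagen Col6a3 fell to 0.433 of the control level (adjusted p = 0.00521).

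The largest fall was that of Greb1. This gene, a cofactor of the estrogen receptor that estrogen itself induces, stood at 10.87, 10.13, 10.85 and 10.94 in controls and 9.12, 8.63, 9.02 and 8.94 after mating. Even control 2, the lowest of the controls, was 1 log2 unit above the highest mated array, and the mean fell to 0.293 of the control level (log2 difference -1.77, SE 0.17, adjusted p = 0.000351). Pgr, the progesterone receptor, stood at 10.38, 10.48, 9.94 and 10.09 in controls and 9.24, 8.52, 9.25 and 8.53 after mating and fell to 0.394 (log2 difference -1.34, SE 0.19, adjusted p = 0.00229). Crabp2, which carries retinoic acid to its receptor, stood at 10.76, 10.71, 11.09 and 11.12 in controls and 9.78, 9.89, 9.75 and 9.12 after mating and fell to 0.411 (adjusted p = 0.0019). These were the 3 falls, beside 0 rises, in a list of 30 steroid receptors and estrogen-responsive genes whose median log2 difference was -0.01. Esr1, the estrogen receptor itself, lay between 12.32 and 12.46 on all 8 arrays (log2 difference 0.01, SE 0.06, adjusted p = 0.961). Without control 3, and also without vasectomized 1, 5 genes of the list were called lower. Among 27 progesterone-regulated genes 1 fell, with a list median of -0.28, where 0.619% of all clusters were called lower. In this list 6 genes were lower without overlap between the groups, where 4.56% of all clusters were. At an unadjusted p under 0.05 in limma 11 were lower and 1 higher, where 2113 of all 23410 clusters were lower and 2446 higher. The gene called was Hsd11b2, which inactivates corticosterone. It fell from 11.85, 10.99, 10.9 and 10.63 to 9.97, 9.25, 9.56 and 9.64, or to 0.356 of the control level (adjusted p = 0.00723).

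**Figure D3:**
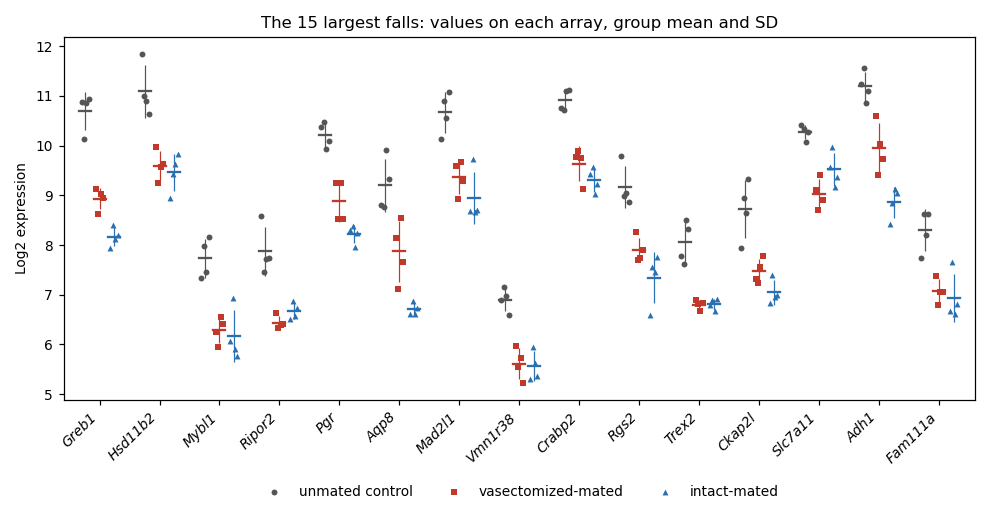
Log2 expression (vertical axis) of the 15 genes with the largest falls on each array, with the group mean as a horizontal bar and the SD (n = 4) as a vertical line, for unmated controls (gray circles), vasectomized-mated females (red squares) and intact-mated females (blue triangles). The genes were chosen so that the 4 vasectomized-mated arrays lie below the 4 control arrays. Their means run from 0.293 of the control level in Greb1 to 0.427 in Fam111a.

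Other genes among the 15 largest falls were Ripor2 (0.372 of the control level, adjusted p = 0.00199), Rgs2, which quenches G protein signals (0.413, adjusted p = 0.0153), the DNA exonuclease Trex2 of surface epithelia (0.419, adjusted p = 0.00166) and Adh1, an alcohol dehydrogenase that oxidizes retinol (0.423, adjusted p = 0.0128). Adh1 was scattered after mating, at 10.6, 9.4, 10.04 and 9.74 against 11.24, 11.56, 10.86 and 11.09 in controls, without overlap. Mybl1, a transcription factor of dividing cells, fell to 0.368 (adjusted p = 0.00838), and controls 2 and 4 at 7.98 and 8.16 stood above controls 1 and 3 at 7.34 and 7.46. The vomeronasal receptor cluster Vmn1r38 had a log2 difference of -1.29 (adjusted p = 0.00209), and its family consists of near copies that share probes, so the source of this signal is uncertain.

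Circadian clock genes fell in 6 of 18 cases and rose in 0, with a median log2 difference of -0.38. Bhlhe41, a repressor of the clock, stood at 7.84, 7.37, 7.52 and 7.47 in controls and 6.89, 6.25, 6.78 and 6.53 after mating and fell to 0.522 of the control level (SE 0.14 on the log2 scale, adjusted p = 0.00402). Per2, a core repressor, stood at 9.65, 9.16, 9.04 and 8.86 in controls and 8.08, 8.01, 8.4 and 8.74 after mating, and fell to 0.546 (adjusted p = 0.0169). Per3 stood at 9.7, 8.66, 9.05 and 8.62 in controls and 7.79, 7.81, 8.13 and 8.61 after mating, and fell to 0.528 (adjusted p = 0.046). Vasectomized 4 was the mated array nearest to the controls in both Per genes, and it lay within 0.01 of control 4 in Per3. The output factors Dbp (-0.85) and Tef (-0.71) and the repressor Nr1d2 (-0.64), named after their values were seen, fell as well. Arntl, the activator whose transcript runs opposite to the Per genes, had a log2 difference of 0.45 (adjusted p = 0.00554), under the fold threshold, from 8.42, 8.61, 8.72 and 8.75 in controls to 9.08, 9.05, 9.06 and 9.1 after mating. The Per2 call was lost without vasectomized 1 or vasectomized 2 (log2 difference from -0.8 to -0.77, adjusted p from 0.0505 to 0.0517), the Per3 call without control 1, control 3 or vasectomized 1, 2 or 3 (from -0.93 to -0.69, adjusted p from 0.0638 to 0.118), and 2 clock genes were called without vasectomized 1 or vasectomized 2. The hour of collection differed between the groups, and its part in these values cannot be told apart from that of mating.

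Genes of the cell cycle had lower means after mating and were widely spread among the controls. All 39 measured genes of DNA replication had a negative log2 difference (median -0.6), 18 were lower without overlap between the groups, where 4.56% of all clusters were, and 4 were called lower, where 0.619% of all were. Rrm1, a subunit of the enzyme that makes deoxynucleotides, stood at 9.31, 10.56, 9.65 and 10.59 in controls and 9.11, 8.8, 8.81 and 9.05 after mating, and fell to 0.473 of the control level (SE 0.27 on the log2 scale, adjusted p = 0.0454). The helicase subunit Mcm3 fell to 0.459 (adjusted p = 0.0456), the cyclin Ccne2 to 0.492 (adjusted p = 0.0321), and Mcm2, named after its values were seen, had a log2 difference of -0.87 (adjusted p = 0.0468). All 39 genes of mitosis had a negative difference as well (median -1.12), with 3 lower without overlap and 1 called, against the same shares of all clusters. That gene was Mad2l1 of the spindle checkpoint, at 10.14, 10.9, 10.55 and 11.07 in controls and 9.6, 8.93, 9.68 and 9.28 after mating (0.408 of the control level, adjusted p = 0.0183). Mki67, the proliferation antigen named after its values were seen, stood at 8.27, 10.35, 9.02 and 10.5 in controls and 8.24, 7.51, 7.82 and 8.69 after mating (log2 difference -1.47, SE 0.49, adjusted p = 0.123). Controls 2 and 4 were high and control 1 lay among the mated arrays.

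The mean over the 39 mitosis genes was 7.36, 8.99, 7.93 and 9.18 on controls 1 to 4 and 7.34, 6.91, 7.16 and 7.67 after mating on the log2 scale, and that over the 39 replication genes was 7.73, 8.68, 7.9 and 8.59 against 7.68, 7.48, 7.47 and 7.54. The number of mitosis genes called lower was 38 with controls 2 and 4 alone, 32 without control 1, and 0 with controls 1 and 3 alone, without control 4, without vasectomized 2 or without vasectomized 4. The number of replication genes called lower was 32 with controls 2 and 4 alone, 10 without control 1, and 0 with controls 1 and 3 alone or without control 2, control 4 or any 1 vasectomized array. The calls of Rrm1 and Mcm3 were lost without control 2, control 4 or any 1 vasectomized array (log2 differences from -1.14 to -0.89 for Rrm1 with adjusted p from 0.0774 to 0.121, and from -1.14 to -0.94 for Mcm3 with adjusted p from 0.0908 to 0.12), that of Ccne2 without any 1 array other than control 1 (from -1.1 to -0.93, adjusted p from 0.0514 to 0.0939), and that of Mad2l1 without control 4, vasectomized 2 or vasectomized 4 (from -1.26 to -1.15, adjusted p from 0.0549 to 0.0565). Ckap2l, a spindle protein (0.421 of the control level, adjusted p = 0.0135), was called without each array in turn. Fam111a, a protease that works at replication forks (0.427, adjusted p = 0.0157), lost its call without control 4 (log2 difference -1.12, adjusted p = 0.0502).

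**Figure D4:**
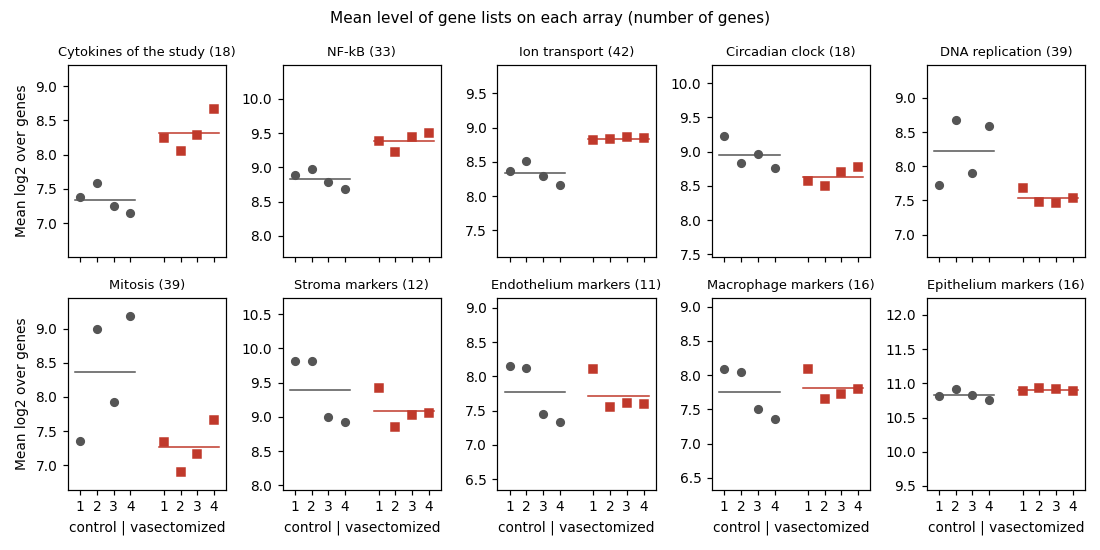
Mean log2 expression over the genes of 10 lists (vertical axis, with the same span in each panel) on control arrays 1 to 4 (gray) and vasectomized-mated arrays 1 to 4 (red), with horizontal lines at the group means and the number of genes in brackets. Ion transport, NF-kB and the study cytokines separate the groups, mitosis and DNA replication are high on controls 2 and 4, and stroma and endothelium markers are high on controls 1 and 2.

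Markers of other cell types were checked in 17 lists, and 4 of their 196 entries were called. These were Il1f9 in the neutrophil list, Cd14 in the macrophage list, Prom1 in the uterine epithelium list (1.77-fold higher, adjusted p = 0.00241) and Krt13 in the squamous list, and Il1f9 and Cd14 are made by epithelium too. The sum over the 15 other neutrophil markers, as log2 of summed linear values, was 12.46 to 13.08 in controls and 13 to 13.08 after mating. The granule genes S100a8 (-0.03, adjusted p = 0.935), S100a9 (0.26, adjusted p = 0.606), Mpo (0.09, adjusted p = 0.61) and Elane (0.04, adjusted p = 0.856) were not called. Of all 16 neutrophil entries, Il1f9 included, 13 had a positive difference and 3 were higher at an unadjusted p under 0.05 in limma. The mean log2 value of the 16 ran from 6.94 to 7.08 on controls and from 7.15 to 7.31 after mating. The rise of Il1f9 adds to that gap, and the sum without Il1f9, given above, overlapped between the groups. The sum over the 15 other macrophage markers was 12.41 to 12.99 in controls and 12.92 to 13.12 after mating. The mean log2 value of all 16 macrophage markers, Cd14 included, showed no such rise. It was 8.09, 8.05, 7.51 and 7.36 on controls 1 to 4 and 8.09, 7.65, 7.72 and 7.79 on vasectomized 1 to 4. In such bulk samples fewer cells of a type and less RNA per cell cannot be told apart. The 12 stromal markers had negative differences throughout (median -0.33), and 0 were called in limma. At an unadjusted p under 0.05 in limma 3 of these stromal markers were lower, where 2113 of all 23410 clusters were. Their mean was 9.82 on both controls 1 and 2, 9 on control 3, 8.93 on control 4, 9.42 on vasectomized 1 and 8.85 to 9.06 on the other mated arrays. Blood endothelium markers were likewise high on controls 1 and 2 and vasectomized 1, at 8.15, 8.13, 7.45 and 7.34 in controls and 8.11, 7.55, 7.61 and 7.6 after mating. The stromal genes Col6a3 and Wnt5a fell beside this shift and were also called with controls 3 and 4 alone. Vasectomized 1 was high in stromal markers too, and the part of the shift in the falls of Col6a3 and Wnt5a was not tested. Sperm genes such as Prm1 (6.79 in controls and 6.75 after mating) and Acr, and seminal vesicle genes such as Svs1, were not called, with differences from -0.14 to 0.13 in the sperm list and from -0.16 to 0.08 in the accessory gland list and 1 gene of each at an unadjusted p under 0.05 in limma. Of 11 reference genes 0 were called in limma, 2 had an unadjusted p under 0.05, and the differences of the 11 ran from -0.24 to 0.19. At that unadjusted p 2446 of all 23410 clusters were higher and 2113 lower.

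**Figure D5:**
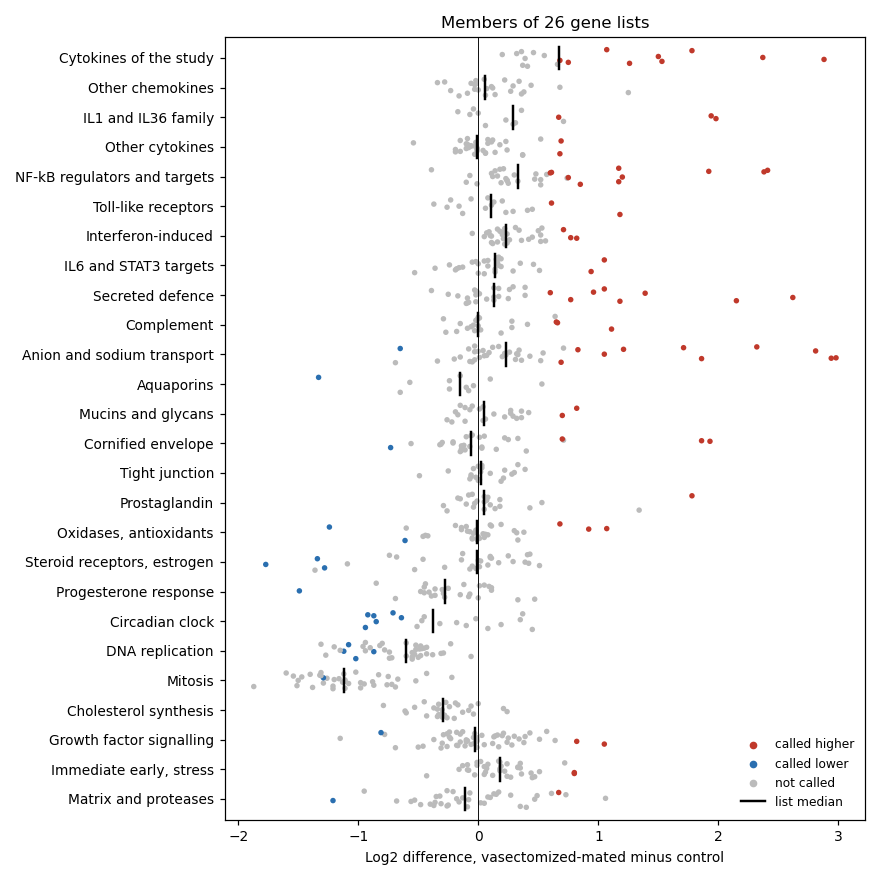
Log2 difference between the vasectomized-mated and control means (horizontal axis) for each measured gene of 26 lists, with called genes in red (higher) or blue (lower), genes not called in gray and the list median as a black bar. Every call of the study cytokine, NF-kB, interferon, defense and complement lists is a rise, every call of the clock, replication and mitosis lists is a fall, and most mitosis genes have large differences that were not called.

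Setting the same genes against the intact-mated arrays showed where the response differed from that to a whole ejaculate. The 2 mated groups share their controls, so the difference between them was tested directly. Of the 261 higher clusters, 35 were higher still after mating with intact males, where 0.564% of all clusters were called higher. After intact mating 9 were lower, where 0.265% of all clusters were called lower, and 217 were not called either way. The clusters were chosen on the same vasectomized-mated arrays, which favors a step back toward controls after intact mating. The shares over all clusters are therefore no test of these counts. Among the 15 largest rises the step from vasectomized to intact mating was largest in Chil1 (log2 difference 1.87, SE 0.29, adjusted p = 0.0112), Cxcl5 (1.86, adjusted p = 0.0118) and Clca3b (1.65, adjusted p = 0.0216), while those of Cxcl2 (1.36, SE 0.36, adjusted p = 0.07), Slc26a4 (1.04, SE 0.42, adjusted p = 0.227) and Dmbt1 (0.45, SE 0.27, adjusted p = 0.423) were not called. Il1b, which was not called against controls, was higher after intact mating by 1.64 (SE 0.28, adjusted p = 0.013). Of the 145 lower clusters 8 were lower still and 1 was higher after intact mating. These 53 clusters in all became 34 without vasectomized 1, 34 without vasectomized 2 and 31 without vasectomized 3. Greb1 fell by a further 0.75 on the log2 scale (adjusted p = 0.0428) and Adh1 by a further 1.09 (adjusted p = 0.0355).

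The 9 clusters that were higher after vasectomized mating than in either other group were named after their values were seen, apart from Etnppl and Erbb4. Etnppl was lower after intact mating by -1.04 (adjusted p = 0.0169) with a mean of 7.88 between the other groups, and Erbb4 was lower by -0.94 (adjusted p = 0.0258) with a mean of 8.19 close to the 8.08 of controls. The metabolic coactivator Ppargc1a stood at 7.29, 7.44, 6.89 and 7.09 in controls and 7.96, 8.08, 8.08 and 8.14 after vasectomized mating, and was lower after intact mating by -0.88 (adjusted p = 0.00908) at a mean of 7.18, equal to that of controls, and its further cluster behaved alike (0.67 against controls and -0.61 against intact). The efflux pump Abcb1b rose by 1.6 and was lower after intact mating by -0.99 (adjusted p = 0.0146), and the sulfotransferase Sult1d1 rose by 0.82 and was lower by -1.29 (adjusted p = 0.0107) at a mean of 9.16 against 9.63 in controls. The protease gene Tmprss6, the receptor gene Olfr920 and ccdc198 made up the rest.

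Clusters annotated to microRNA genes rose in 8 of 366 cases (2.19%, against 1.11% of all clusters) and fell in 0, and their median log2 difference was 0.03. They were looked at after their values were seen. The array labels total RNA and reads such loci at the precursor or host transcript, and mature microRNAs were not measured. Mir15a and Mir16-1 lie next to each other on chromosome 14 and rose together, Mir15a from 9.87, 9.66, 9.81 and 9.61 to 10.35, 10.59, 10.41 and 10.3 (log2 difference 0.67, SE 0.1, adjusted p = 0.00311) and Mir16-1 from 7.27, 6.9, 6.74 and 6.58 to 7.52, 7.81, 7.89 and 7.59 (0.83, SE 0.14, adjusted p = 0.00764). The clusters of Mir29b-2 (1.15, adjusted p = 0.00852) and Mir29c (0.97, adjusted p = 0.0308) are neighbours on chromosome 1 and share the host gene A330023F24Rik, whose own cluster rose by 0.95. Mir10a (0.99, adjusted p = 0.0284), Mir224 (0.72), Mir192 (0.61) and Mir340 (0.59) were at separate loci. The mature sequences of the neighbouring pairs are shown from the RefSeq table (GRCm38.p6) because each pair shares its seed, bases 2 to 8, which is in capitals.
mmu-miR-15a-5p: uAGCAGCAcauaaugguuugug
mmu-miR-16-5p: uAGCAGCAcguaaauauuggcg
mmu-miR-29b-3p: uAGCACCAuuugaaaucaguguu
mmu-miR-29c-3p: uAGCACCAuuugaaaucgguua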

How the data were processed

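Affymetrix Mouse Gene 1.0 ST arrays measured RNA from the endometrium of mated and unmated females. The authors processed the arrays in Partek software by RMA background and GC content correction and took the mean over probes, and the deposited log2 values were used unchanged. The Partek version is not given in the sources used here. Groups were taken from the array labels, and per the methods the 4 pools of a group are independent replicates from different females. Of 35556 clusters 21789 carried 1 symbol, 1621 several and 12146 none. Where a listed gene had more than 1 cluster, the brightest on average stood for it.

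In limma 3.58.1 (R 4.3.3) a linear model with the 3 groups as factor was fitted to all 12 arrays (residual degrees of freedom 9, prior 3.26), with Benjamini-Hochberg correction over all clusters. Scripts were tested on simulated data. The number of arrays limits the precision. The comparison, its members, the 44 gene lists (964 of 1042 entries measured) and the tests were chosen with earlier results of these data known. Named genes were the 15 largest rises and 15 largest falls among called clusters with 1 symbol and no overlap, the study cytokines, and up to 3 called members of each list by size, or the largest difference where none was called. Alternatives changed the normalization (quantile, or centring on the median), the moderation (trend and robust, or none), the arrays (weights, a block for the replicate number, the 8 arrays alone, or each array left out), the clusters tested (those of mean 7.28 or more, those with a symbol, or 1 per gene) and the fold threshold (2, or none). Fits with 2 of the 4 controls were added after seeing the data. Promoter windows and microRNAs were matched by symbol to RefSeq tables.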

Additional observations from a re-analysis of the deposited data

Results flagged for a closer look

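In 6 of 196 groups of 4 arrays tested among the named genes, 1 array stood apart from the other 3 by Dixon's 95% criterion, and chance gives about 1 in 20. Control 2 was high in Cxcl5 at 6.69 and low in Greb1 at 10.13, vasectomized 1 was low in Etnppl at 8.65, vasectomized 4 was high in Rsad2 at 9.79, and array 4 was high in Ppia in both groups, at 12.51 in controls and 12.23 after mating, all on the log2 scale.

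The mated groups differed by the direct test in 23 named genes. Intact mating gave the higher level in Chil1 (1.87), Cxcl5 (1.86), Clca3b (1.65), Il1b (1.64), Nos2 (1.51), Tnfaip2 (1.47), Il17c (1.42), Saa3 (1.4), Clca3a2 (1.33), Il1f9 (1.17), Sprr2b (1.12), Sprr2d (1.1), Noxo1 (0.94), Cxcl1 (0.85), Csf3 (0.84), Plaur (0.74), Cxcl3 (0.67), Il6 (0.63) and Il23a (0.61), as log2 differences between intact and vasectomized mating. It gave the lower level in Adh1 (-1.09), Etnppl (-1.04), Erbb4 (-0.94) and Greb1 (-0.75). The limma adjusted p-values ran from 0.00568 for Cxcl1 to 0.0433 for Tnfaip2.

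Among the 12146 clusters without a gene symbol, which the comparison above does not use, 90 were called higher and 11 were called lower after mating with vasectomized males.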

How the results depend on the processing

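The counts of clusters called higher and lower stayed within 1.5 times of 261 and 145 under quantile normalization, median centring, trend and robust moderation, array weights, removal of dim clusters, correction over clusters with a symbol and 1 cluster per gene. Without variance moderation 79 were lower, and in the fit of the 8 arrays only 82 were lower. A fold of 2 left 64 higher and 34 lower, and no fold threshold gave 784 and 380. Leaving out 1 array gave 201 to 302 higher and 85 to 273 lower. With controls 3 and 4 only 465 were higher and 236 lower, with controls 1 and 2 only 312 were lower, and with controls 2 and 4 only 474 were lower. Of the 53 called clusters that also differed from intact mating, the count was 24 without moderation, 16 at a fold of 2, 170 with no fold threshold, 86 with controls 3 and 4 only, and 31 to 65 with 1 array left out (34 without vasectomized 1, 34 without vasectomized 2 and 31 without vasectomized 3). The fit of the 8 arrays only gives no value for it.

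Replicate numbers did not pair the arrays. Deviations of same-numbered arrays correlated at 0.112, -0.255, -0.005 and 0.063 for numbers 1 to 4, and with the replicate block 232 clusters were higher, 117 were lower and 36 differed from intact mating. The block left 3 clock genes called and ended 8 calls of named genes.

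Over 24 alternatives the direction of 98 named genes held in all but 5 of 2330 values, all in genes that were not called. These were Gzmb at -0.04 with controls 1 and 2 only, and Ppbp at -0.06, Cd209a at 0.26, Jchain at 0.49 and Wt1 at 0.22 with controls 3 and 4 only. Of 72 called named genes 53 were called whichever array was left out. The cause of these shifts was not tested.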

Other observations

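Some families were looked at after their values were seen, and some of their members are also counted in the lists above. Of 99 clusters of heat shock and DnaJ genes 6 were called lower (6.06%, against 0.619% of all clusters) and 0 higher, with a family median of -0.02. They were 3 clusters of Hsp90aa1, the inducible cytosolic chaperone, 2 of Hspb1 and 1 of Hspb8, both small heat shock proteins. Hspb1 stood at 11.85, 11.49, 11.64 and 12.02 in controls and 10.7, 10.58, 11.09 and 10.83 after mating (log2 difference -0.95, SE 0.12, adjusted p = 0.00177), and its clusters may share probes, as may those of Hsp90aa1. Hsp90aa1 was higher on controls 2 and 4, at 11.73 and 11.77, than on controls 1 and 3, at 11.21 and 11.15, and stood at 10.8 to 10.95 after mating. Serpinh1, the collagen chaperone, had a log2 difference of -0.83 (adjusted p = 0.0324).

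Solute carriers gave 13 rises and 2 falls among 379 clusters (3.43% and 0.528%, against 1.11% and 0.619% of all clusters). Slc26a4, Slc26a9, Slc5a1, Slc5a8 and Slc34a2 among the rises, and both falls, Slc4a11 and Slc7a11, were already counted in lists above. Beside those described, the amino acid carriers Slc6a14 (1.42) and Slc1a1 (0.82), the monocarboxylate carrier Slc16a7 (1.31), the fatty acid transporter Slc27a2 (1.29) and the sugar transporter Slc2a6 (1.27) were among the rises, as log2 differences. Crabp1, a relative of Crabp2 that also binds retinoic acid, had a log2 difference of -1.18 (SE 0.19, adjusted p = 0.00591), and the cytokine-responsive factor Stat5a one of -0.84 (SE 0.11, adjusted p = 0.00182), from 10.06, 9.95, 10.37 and 10.49 to 9.41, 9.21, 9.48 and 9.41.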
